A study of Rattus norvegicus with 30 samples.

Results

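The genes that encode opioid peptide precursors were followed in rat testis as it matured in the animal and as explants of it were kept in culture. They are Penk, Pdyn, Pnoc and Pomc, 4 of the 17322 genes measured, and all 4 were found by their Entrez Gene identifiers. They were chosen by their levels in this same table, because Pnoc, Pdyn and Penk stood high in late culture, so their levels at D16, D22 and D28 and at the 14.5 dpp reference are given as a description, with no test. Tests on these genes were made only between other groups.

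The in vivo groups were testes of Wistar Han rats, which were 8.5 or 14.5 days postpartum (dpp) or, as the older groups, 24.5, 30.5, 36.5 or 53.5 dpp. For culture, each 8.5 dpp testis was divided into 6 pieces that lay on agarose between gas and liquid at 34 °C. They were harvested after 6 days (D6), 16 days (D16), 22 days (D22) or 28 days (D28). All cultures received αMEM with 10% knock-out serum replacement, retinol and vitamin E, so no cultured group lacked these supplements. Each group had 3 libraries, except 14.5 dpp with 2, because 1 testis labelled as an outlier is listed at 0 for all 17322 genes and was not used. Each in vivo library came from 1 testis. Each cultured library pooled explants of several males, and the necrotic centre of the explants had been cut away, so the cultured libraries hold the surviving rim of the tissue.

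Opioid peptides are cut out of larger secreted precursors. Penk (proenkephalin) holds the enkephalins, Pdyn (prodynorphin) the dynorphins, and Pnoc (prepronociceptin) holds nociceptin, a related peptide with a receptor of its own. Pomc (proopiomelanocortin) holds beta-endorphin, but also corticotropin and the melanocyte-stimulating hormones. Prohormone convertases cut the precursors at pairs of basic residues, and carboxypeptidase E trims the ends. In the testis, enkephalin precursor RNA is known from Sertoli cells and germ cells, prodynorphin RNA from Sertoli cells, and Pomc RNA from Leydig cells and germ cells. Some testicular Penk and Pomc transcripts start at other sites than those of brain or pituitary, and the values used here, 1 per gene, do not separate them.

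Levels are given in FPKM, a value per kilobase of transcript and relative to the library's mapped reads, and were compared as log2(FPKM + 1), where 1 is the pseudocount. The number of reads behind a value is unknown. Relative depth, read from the spacing of low values, lay between 0.847 and 1.55 over the 29 libraries, and between 12520 and 13563 genes had a value above 0. A value of 0 can be a failed estimate in this table, since Ppia and Hprt1, which all cells use, are listed at 0 in all 29 libraries, Rpl13a in 3 and Gapdh in 1. RNA came from whole tissue, where fewer cells of a type and less RNA per cell cannot be told apart. Markers of pituitary and adrenal tissue, in which Pomc, Penk or their hormones are abundant, summed to at most 0.401 FPKM over 6 genes in any library. Markers of Sertoli cells, which line the seminiferous tubules, summed to 338 to 4718 FPKM over 10 genes.

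Together the 4 precursors summed to 33.3 ± 4.05 FPKM at 8.5 dpp and 125 ± 7.52 at 53.5 dpp (SD, n = 3). In culture the sum stayed between 33.6 ± 8.32 (D16) and 51.0 ± 1.22 FPKM (D28; SD, n = 3). At 53.5 dpp, Penk made up 63.9% ± 2.06 and Pomc 33.7% ± 1.90 of the summed level, while Pdyn held 1.78% ± 0.240 and Pnoc 0.544% ± 0.112 (SD, n = 3). At D28, Penk held 56.4% ± 5.27, Pnoc 23.0% ± 2.49, Pdyn 16.6% ± 1.54 and Pomc 4.03% ± 2.58 (SD, n = 3). Penk was the largest of the 4 in the mean of every group.

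**Figure D1:**
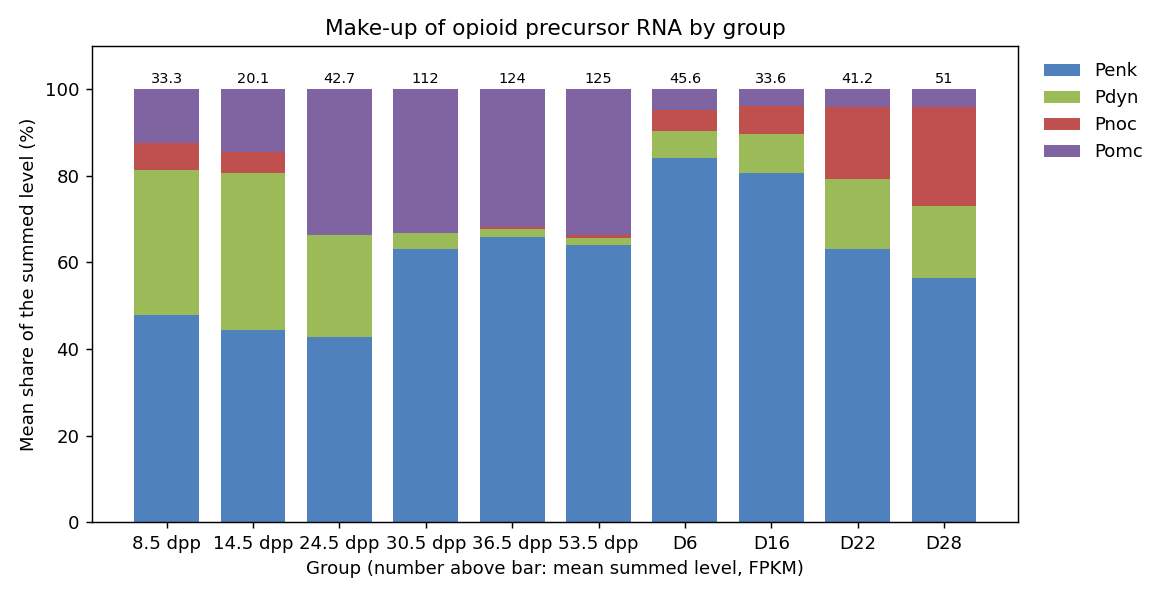
Bars show, for each of the 10 groups (horizontal axis), the mean share in percent that each precursor held of the 4 genes' summed FPKM, with the mean sum in FPKM above the bar. Penk and Pomc take up nearly the whole bar at 53.5 dpp (63.9% and 33.7%), whereas Pnoc reaches 23.0% at D28.

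Penk was high in the older testes and intermediate in culture. Its 3 libraries of 8.5 dpp held 12.2, 13.8 and 22.7 FPKM, those of 24.5 dpp 21.6, 20.2 and 13.4, and those of 30.5 dpp 61.8, 80.3 and 70.0 FPKM. At 36.5 dpp it stood at 76.5, 82.7 and 85.3 FPKM and at 53.5 dpp at 73.5, 82.0 and 84.4 FPKM. The groups of 30.5 dpp and older overlapped each other and lay above every other library of the series. In culture, Penk held 37.0, 36.3 and 41.5 FPKM at D6, then 37.5, 23.0 and 21.5 at D16, 23.0, 27.0 and 27.8 at D22, and 25.0, 30.2 and 31.1 FPKM at D28. The D6 libraries were above all D22 and D28 libraries, and 1 of the 3 D16 libraries lay within the D6 range. The 14.5 dpp testes, with 8.96 and 8.91 FPKM, were the lowest of all. Late culture was thus high against 14.5 dpp (D28 to 14.5 dpp ratio of means 3.22), but lower than D6 and than the testes of the same total age, with a D28 to 36.5 dpp ratio of 0.353.

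Pdyn had the opposite course in the animal and a return in culture. It stood at 12.0, 11.2 and 9.60 FPKM at 8.5 dpp, at 7.26 and 7.31 at 14.5 dpp, and at 6.99, 9.19 and 13.0 FPKM at 24.5 dpp. It was at 3.74, 4.65 and 4.09 FPKM at 30.5 dpp, at 2.16, 2.70 and 2.53 at 36.5 dpp, and at 2.43, 2.03 and 2.19 FPKM at 53.5 dpp. The 24.5 dpp testes spread widely and spanned the 8.5 dpp range, and the testes of 30.5 dpp and older were below every younger testis. In culture, Pdyn held 3.09, 3.07 and 2.50 FPKM at D6, 2.49, 3.42 and 2.78 at D16, 8.93, 5.71 and 5.50 at D22, and 8.33, 9.31 and 7.72 FPKM at D28. All D22 and D28 libraries lay above all D6 and D16 libraries, while D22 and D28 overlapped. The D28 level was 2.92 times the D16 level and 3.43 times that of 36.5 dpp (ratios of means), but only 1.16 times that of 14.5 dpp, and all D28 libraries were below all 8.5 dpp libraries. Pdyn at D28 was therefore high against early culture and against older testes, not against the tissue from which the explants were cut.

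Pnoc was low in the animal and high in late culture. It stood at 1.61, 3.20 and 1.46 FPKM at 8.5 dpp and at 1.38 and 0.546 FPKM at 14.5 dpp. All 3 testes of 24.5 dpp and 1 of 30.5 dpp are listed at 0, and the other 2 of 30.5 dpp held 0.219 and 0.172 FPKM. It was at 0.496, 0.378 and 0.454 FPKM at 36.5 dpp and at 0.521, 0.655 and 0.883 FPKM at 53.5 dpp. In culture it held 1.28, 2.97 and 2.41 FPKM at D6 and 2.17, 2.13 and 1.97 at D16, within the 8.5 dpp range or below it, then 8.47, 5.77 and 6.25 at D22 and 12.8, 10.8 and 11.5 FPKM at D28. Every D28 library was above every D22 library, and every D22 library above all remaining libraries. Pnoc is 1 of 80 genes, 0.627% of the 12762 detected genes (a median of 0.5 FPKM or more in some group), for which all D28 libraries lay above all other libraries. The D28 to 14.5 dpp ratio of means was 12.2, and the D28 to D16 ratio was 5.59. On the log2 scale the D28 to 14.5 dpp difference was 2.73, and 3.59 with a pseudocount of 0.1.

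Pomc followed the older testes and stayed low in culture. It held 3.93, 4.32 and 3.94 FPKM at 8.5 dpp, 2.97 and 2.85 at 14.5 dpp, and 16.7, 16.7 and 10.3 FPKM at 24.5 dpp. It reached 37.0, 38.5 and 35.2 FPKM at 30.5 dpp, 33.4, 47.2 and 38.7 at 36.5 dpp, and 41.8, 39.2 and 45.6 FPKM at 53.5 dpp. The testes of 30.5 dpp and older overlapped each other and were above all younger testes. In culture it stood at 1.75, 1.58 and 3.24 FPKM at D6, 0.915, 1.32 and 1.44 at D16, 1.92, 1.16 and 2.05 at D22, and 3.47, 1.35 and 1.28 FPKM at D28. The culture times overlapped, apart from D16 and D6, and 1 library at D6 and 1 at D28 stood apart from the other 2. At D28 the mean was 0.0511 times that of 36.5 dpp.

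**Figure D2:**
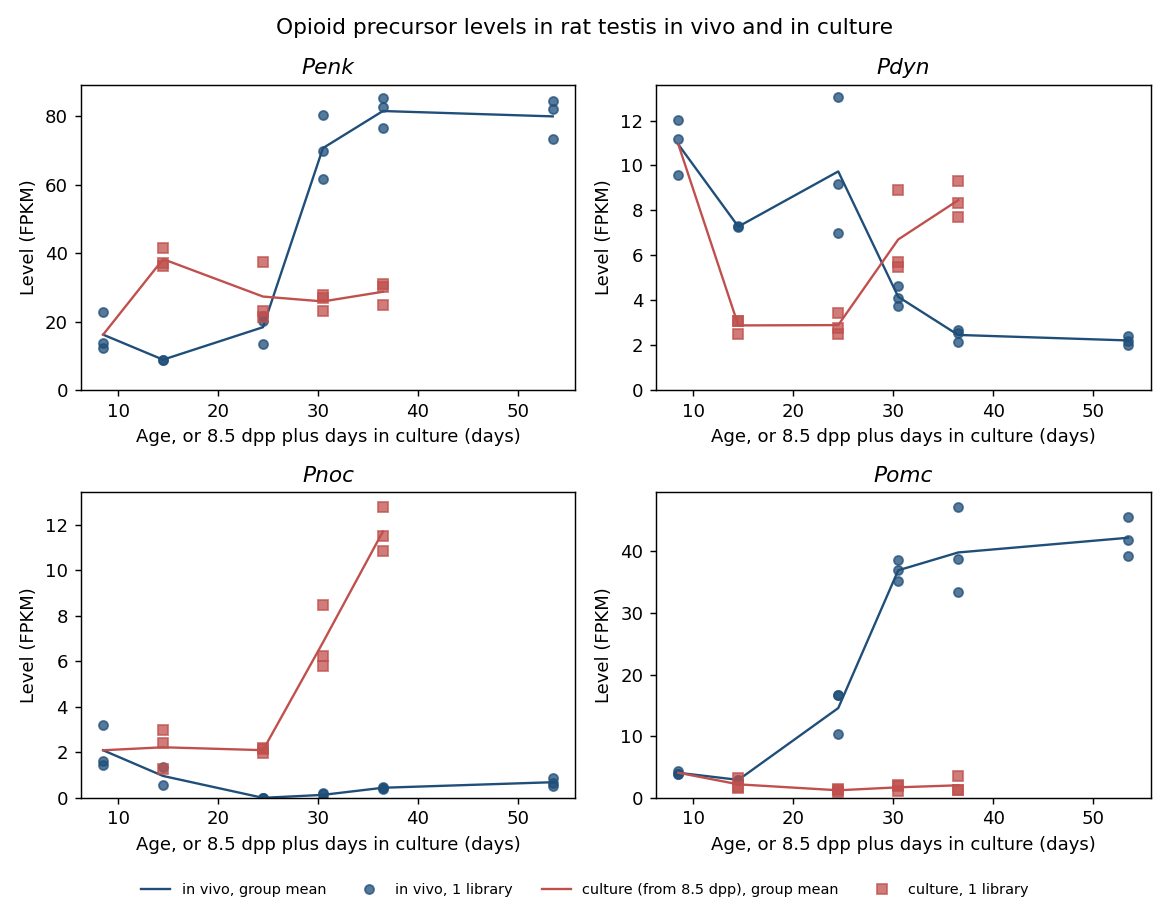
Each panel plots 1 precursor, with its level in FPKM against age, or 8.5 dpp plus the days in culture; points are single libraries and lines join group means. Penk and Pomc stand highest in the testes of 30.5 dpp and older, while in culture Penk is highest at D6 (38.3 FPKM) and the means of Pomc lie between 1.23 and 2.19 FPKM. Pdyn and Pnoc stand higher at D28 than at D16, whereas in vivo Pdyn goes from 9.74 FPKM at 24.5 dpp to 2.46 at 36.5 dpp and the means of Pnoc from 24.5 dpp on lie between 0 and 0.686 FPKM.

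The order of the 10 group means differed between the genes. For Penk it ran from 36.5 dpp (81.5 ± 4.52 FPKM) through 53.5 and 30.5 dpp, D6, D28, D16, D22, 24.5 and 8.5 dpp to 14.5 dpp (8.94 ± 0.0337, SD, n = 2). Neighbours in this order overlapped except at the steps from 30.5 dpp to D6, D6 to D28, D22 to 24.5 dpp and 8.5 to 14.5 dpp. For Pdyn it ran from 8.5 dpp (10.9 ± 1.24 FPKM, SD, n = 3) through 24.5 dpp, D28, 14.5 dpp, D22, 30.5 dpp, D16, D6 and 36.5 dpp to 53.5 dpp (2.22 ± 0.204), with no overlap at D28 to 14.5 dpp, D22 to 30.5 dpp and 30.5 dpp to D16. For Pnoc it began with D28 (11.7 ± 0.985 FPKM), D22, D6, D16 and 8.5 dpp, and D6, D16 and 8.5 dpp overlapped. Pomc was lowest in the 4 culture times, at 1.23 ± 0.276 (D16) to 2.19 ± 0.911 FPKM (D6; SD, n = 3), neighbours of which overlapped in the order of the means.

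For Pdyn, whose level fell by D6 and was high again at D28, the 250 bases before the annotated start are shown, since the gene is the only one of the 4 with such a window outside its gene span in the RefSeq table used (build GRCr8, chr3:137366504-137366753, minus strand). The capitals mark a match to the letters of the TATA box, found by search. Whether it acts as a TATA box for this start was not tested.
Pdyn: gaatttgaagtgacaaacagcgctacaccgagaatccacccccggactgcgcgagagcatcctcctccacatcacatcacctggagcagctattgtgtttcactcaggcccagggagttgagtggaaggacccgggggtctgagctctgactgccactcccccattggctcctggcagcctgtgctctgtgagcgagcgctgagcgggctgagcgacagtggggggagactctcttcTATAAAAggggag
The letters TATAAAA were searched on both strands and begin 13 bases before the start. Of 33469 windows of the same length, 5.38% hold them. The core of cAMP response elements (TGACG, in 18.2% of windows), the AP-1 site (TGANTCA, in 6.34%) and the E-box (CACGTG, in 5.59%), which were searched on both strands too, did not match in this window. These matches describe letters, not binding.

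Which precursors changed while the testis matured was tested over the 5 ages other than 14.5 dpp. Calls required both an adjusted p of 0.05 or less in limma and group medians that differed 2-fold or more. Over the 5 ages all 4 were called in limma's F test (adjusted p = 4.77e-08 for Penk, 9.27e-08 for Pdyn, 4.28e-06 for Pnoc and 1.08e-09 for Pomc), but so were 88.7% of the 12400 genes tested, so that the 4 calls do not set the precursors apart. The steps between neighbouring ages say more of when each gene moved.

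From 8.5 to 24.5 dpp, Pomc rose by 1.59 ± 0.162 on the log2 scale (SE, adjusted p = 1.10e-06 in limma), where 21.5% of genes were called higher. Pnoc fell in the same step (adjusted p = 1.37e-06), where 24.0% of genes were called lower, and no fold is given because it is listed at 0 in all 3 testes of 24.5 dpp. A 0 can be a failed estimate in this table, so the p-value of Pnoc holds only if these values of 0 are true. Penk and Pdyn were not called (log2 difference 0.19 ± 0.206 and -0.19 ± 0.165, SE). Markers of spermatocytes moved in the same step, 5 of 5 being higher at 24.5 dpp with a sum of 1436 to 1929 FPKM against 16.3 to 17.9. Markers of stromal cells were lower in 5 of 5 genes (53.0 to 104 against 695 to 708 FPKM), of peritubular cells in 5 of 5 (61.7 to 113 against 684 to 731) and of endothelial cells in 3 of 4 (6.13 to 10.4 against 43.5 to 46.4). The part of these cell types in the changes of Pomc and Pnoc was not tested.

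From 24.5 to 30.5 dpp, Penk rose by 1.90 ± 0.206 (adjusted p = 4.20e-06 in limma) and Pomc by 1.31 ± 0.162 (adjusted p = 1.13e-05), and every testis of 30.5 dpp was above every testis of 24.5 dpp for both. In this step 13.3% of genes were called higher, and how many of all genes separated in this way was not counted. Pdyn fell by 1.02 ± 0.165 on the log2 scale (adjusted p = 1.03e-04 in limma), where 24.6% of genes were called lower and the median of all tested genes was -0.32. The call on Pdyn rested on the scaling and on 1 testis, since it was lost with quantile normalization (log2 difference -0.70) and without the third testis of 24.5 dpp (-0.81). Markers of Sertoli cells were lower in 10 of 10 genes, with a sum of 747 to 946 FPKM at 30.5 dpp against 2023 to 2904. Markers of spermatids were higher in 4 of 4 genes, with 166 to 706 FPKM against 12.1 to 12.5, and Tnp1 and Prm1 were at 0 in the 24.5 dpp testes. What these cell types contributed to the changes of the 3 precursors was not tested.

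Later steps were small. From 30.5 to 36.5 dpp no precursor was called, where 6.12% of genes were called higher and 1.47% lower. Pdyn had a log2 difference of -0.57 ± 0.165 (adjusted p = 0.0177 in limma), with all 36.5 dpp testes below those of 30.5 dpp but medians less than 2-fold apart. Pnoc had a difference of 0.36 ± 0.166 (adjusted p = 0.108), which passed both thresholds with a pseudocount of 0.1. From 36.5 to 53.5 dpp none of the 4 was called in limma, and their adjusted p lay between 0.306 (Pnoc) and 0.933 (Penk), where 2.63% of genes were called higher and 3.99% lower.

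The first days in culture were tested at D6 against 8.5 dpp, the age at which the explants were taken. Penk rose by 1.23 ± 0.213 (adjusted p = 0.00325 in limma), from 16.2 ± 5.69 to 38.3 ± 2.84 FPKM (SD, n = 3), where 9.89% of 11216 genes were called higher. Pdyn fell by 1.62 ± 0.112 on the log2 scale (adjusted p = 7.38e-05 in limma), from 10.9 ± 1.24 to 2.89 ± 0.332 FPKM (SD, n = 3), where 6.39% of genes were called lower. Pomc had a log2 difference of -0.70 ± 0.186 (adjusted p = 0.0188 in limma), which was called but lost in 4 of 6 fits that left out 1 library (adjusted p 0.0509 to 0.0663). Pnoc did not pass, with a difference of 0.07 ± 0.268 (adjusted p = 0.859). Penk and Pdyn thus moved in opposite directions, and for neither did the 2 groups overlap. Such separation also occurred in uncalled genes, such as Jun (adjusted p = 0.196 in limma). It was not counted over all genes and does not set the precursors apart.

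Beside these early changes, markers of Leydig cells were lower in 6 of 6 genes, summing to 12.7 to 19.7 FPKM at D6 against 230 to 330 at 8.5 dpp, and markers of peritubular cells were lower in 5 of 5 genes (196 to 380 against 684 to 731 FPKM). Lymphocyte markers summed to 28.4 to 29.9 FPKM against 5.97 to 6.12, with 4 of 7 genes higher and Cd3g and Ms4a1 at 0 at D6, and Cd8a alone went from 1.03 to 24.2 FPKM in the group means. Sertoli cell markers were split, with 6 of 10 genes higher. Markers of spermatogonia were higher in 5 of 6 genes, summing to 78.6 to 133 FPKM at D6 against 41.6 to 42.1. Spermatocyte markers were higher in 5 of 5 genes (24.0 to 29.7 against 16.3 to 17.9 FPKM). Endothelial markers were higher in 3 of 4 genes (63.0 to 71.4 against 43.5 to 46.4 FPKM), and stromal markers lower in 4 of 5. Whether these cell types had a part in the changes of Penk, Pdyn and Pomc was not tested.

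**Figure D3:**
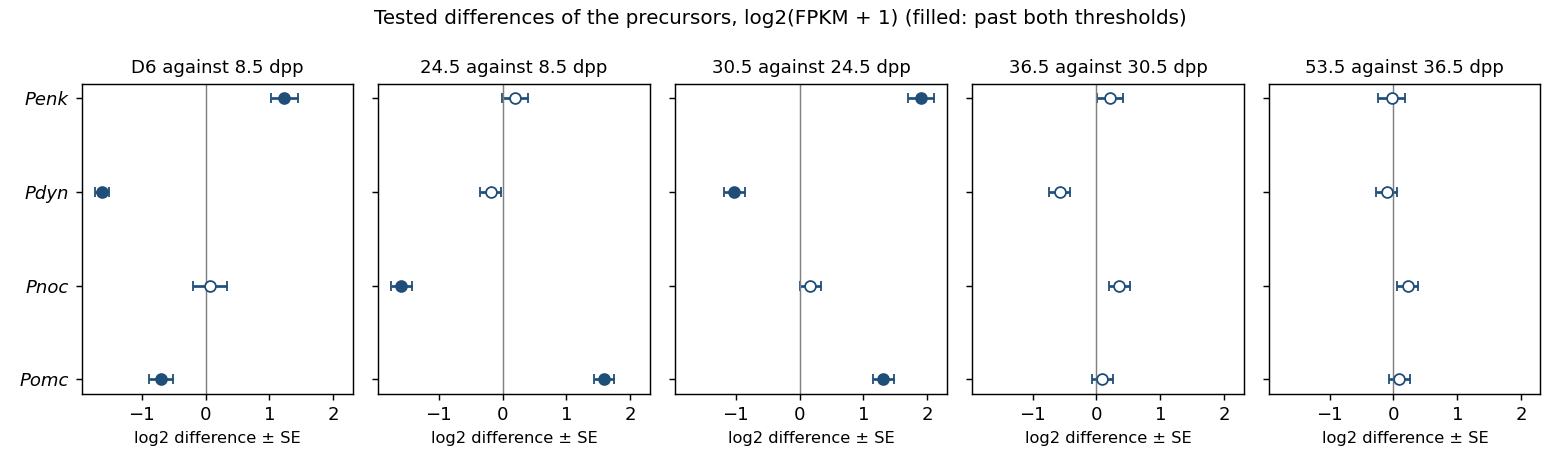
Points show the log2(FPKM + 1) difference of each precursor in the 5 tested comparisons, the bars are standard errors, and filled points passed both thresholds. Penk and Pdyn differ in sign at D6 and again from 24.5 to 30.5 dpp, and no point is filled after 30.5 dpp.

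Between D16 and D28 the median of Pnoc and of Pdyn at least doubled, as it did in 240 of 11174 detected genes (2.15%). This is a description, since late culture chose the genes. Sertoli cell markers summed to 2510 to 2870 FPKM at D16 and 3917 to 4718 at D28, with 7 of 10 genes higher and a median log2 difference of 0.08. Most of the higher sum was Clu (mean 1512 FPKM at D16, 2999 at D28). Lymphocyte markers summed to 24.7 to 28.7 FPKM at D16 and 16.6 to 18.0 at D28, with Cd3g and Ms4a1 at 0 in both and Cd79b at 0 at D28. Of the 7 genes, 2 had a higher and 2 a lower median at D28 and 3 were equal, and most of the lower sum was Cd8a (mean 19.4 FPKM at D16, 9.94 at D28), while Cd4 had 5.76 and 6.13 FPKM. Their part in the levels of Pnoc and Pdyn was not tested.

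The genes most like each precursor were those with the highest Pearson correlation of log2(FPKM + 1) over the 29 libraries, among 12762 genes. The libraries share groups, so these values describe the groups as much as the genes. For Penk they were Fam167a (r = 0.915), Adgre1 (0.908), which encodes the macrophage antigen F4/80, and Hipk3 (0.903), a protein kinase. For Pdyn they were Wfdc10a (0.862), of the whey acidic protein family, Pdlim5 (0.842) and Tanc2 (0.818), both scaffold proteins. For Pnoc they were Oasl2 (0.932), Isg15 (0.930), which encodes a ubiquitin-like protein, and Irf7 (0.929), an interferon regulatory transcription factor. Isg15 held 8.61 ± 1.47 FPKM at D16 and 24.5 ± 6.23 at D28 (SD, n = 3), and at most 0.885 ± 0.734 in the testes of 24.5 dpp and older. For Pomc they were Rhbdd3 (0.993), Acbd6 (0.991) and C8h11orf71 (0.989). The 5 macrophage markers, of which Adgre1 is 1, did not all follow Adgre1. From 24.5 to 30.5 dpp the mean of Adgre1 went from 0.0773 to 2.15 FPKM, and the mean sum of the 5 from 17.0 to 21.4. In that step 3 of the 5 had a higher and 2 a lower median. Cd163, another of the 5, was at 0 in all cultured libraries. By Spearman's rank correlation the 3 leading genes shared 1 with those of Penk, 2 with Pdyn, 0 with Pnoc and 1 with Pomc. Among the precursors, Penk and Pdyn had r = -0.76, Pnoc and Pomc -0.723, and Penk and Pomc 0.665 over the 29 libraries.

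Receptors were mostly not detected. The classical receptors Oprm1 (mu), Oprd1 (delta), Oprk1 (kappa) and the nociceptin receptor Oprl1 had no group median of 0.5 FPKM. Oprk1, the receptor of dynorphins, had the highest level of the 4, at 0.428 ± 0.124 FPKM at 8.5 dpp and 0.414 ± 0.0723 at D16 (SD, n = 3). In the testes of 53.5 dpp, Oprl1 held 0.274 ± 0.105 FPKM, and all D28 libraries, where Pnoc was highest, list it at 0. Ogfr, which binds met-enkephalin and is no relative of the other receptors, stood at 79.8 ± 5.23 FPKM at 8.5 dpp and 69.5 ± 5.91 at D28, and fell by 1.25 ± 0.136 from 24.5 to 30.5 dpp (log2, SE, adjusted p = 4.37e-06 in limma). Ackr3, an atypical chemokine receptor that also takes up opioid peptides, fell by 1.08 ± 0.157 in that step (adjusted p = 4.34e-05). Ogfrl1, the other gene of the receptor list that was tested, was called higher there. In that step 13.3% of all tested genes were called higher and 24.6% lower, and their median log2 difference was -0.32. At D28 against 14.5 dpp Ackr3 had a log2 difference of 0.91 ± 0.163 (adjusted p = 0.00208 in limma) with medians less than 2-fold apart. None of the 3 receptors tested was called in late culture, where at D28 7.63% of all genes were called higher and 6.01% lower.

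Among the enzymes that cut the precursors, Pcsk1 is listed at 0 in all 29 libraries, and Pcsk2 reached at most 0.154 FPKM in a library. These are the neuroendocrine convertases. For Pcsk1 a 0 in all 29 libraries can be a failed estimate, as for Ppia and Hprt1, so its absence is not shown. Furin, a convertase of most cells, stood at 37.5 ± 4.04 FPKM at 8.5 dpp, 2.51 ± 0.209 at 53.5 dpp and 40.1 ± 7.54 at D28 (SD, n = 3). Pcsk4, a convertase known from germ cells, rose by 2.47 ± 0.137 from 8.5 to 24.5 dpp (log2, SE, adjusted p = 2.51e-09 in limma) and by 1.06 ± 0.137 from 24.5 to 30.5 dpp (adjusted p = 1.68e-05), to 73.5 ± 3.80 FPKM at 53.5 dpp (SD, n = 3). At D28 it held 8.23 ± 1.33 FPKM.

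In late culture, Cpe and Ctsl were higher. Cpe (carboxypeptidase E) stood at 3.52 and 3.91 FPKM at 14.5 dpp and at 8.89 to 11.6 at D28, a log2 difference of 1.24 ± 0.117 (SE, adjusted p = 6.97e-05 in limma). It was called at D16 (1.55), D22 (1.17) and D28, and already at D6 against 8.5 dpp (0.91, adjusted p = 2.76e-04). Ctsl, a protease that can also process enkephalin precursors, rose from 229 ± 53.1 FPKM (n = 2) to 681 ± 74.8 (SD, n = 3), by 1.58 ± 0.171 at D28 (log2, SE, adjusted p = 1.36e-04 in limma). Pam, the amidating enzyme, stood at 40.6 FPKM in the mean of 14.5 dpp and at 62.0 at D28 and was not called in late culture.

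**Figure D4:**
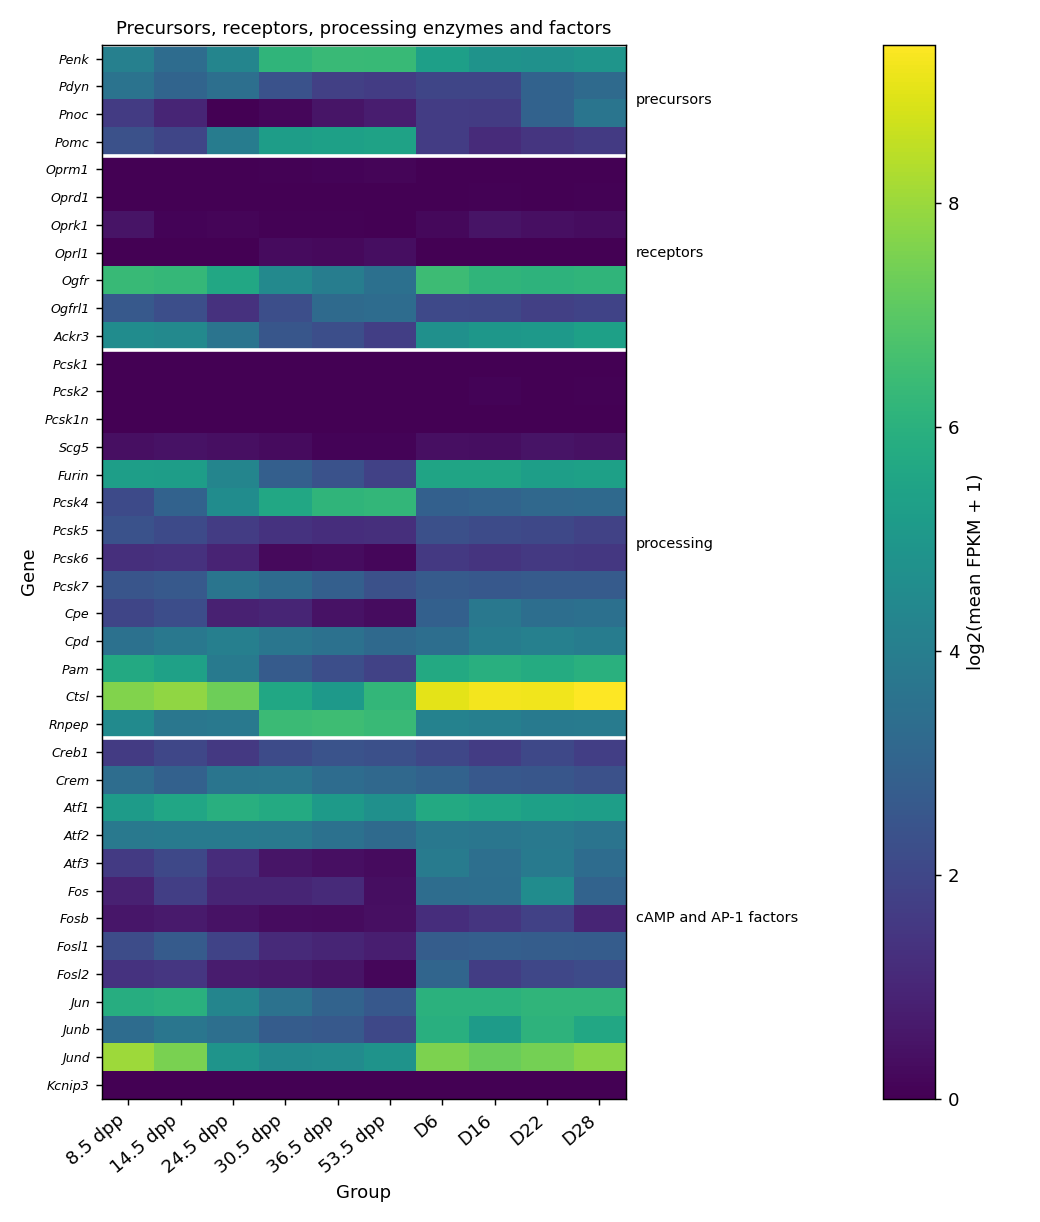
Colour gives log2(mean FPKM + 1) for the 4 precursors, 7 receptors, 14 processing genes and 13 cAMP and AP-1 factors (rows) in the 10 groups (columns). The rows of Oprm1, Oprd1, Oprl1, Pcsk1 and Pcsk2 are dark in all groups, and Cpe, Ctsl, Fos and Junb are brighter in the 4 culture columns.

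Factors of the cAMP and AP-1 families, which are known to act on Penk and Pdyn, were among the pathway genes that moved in culture. Of 12 tested, 5 were called higher at D6 against 8.5 dpp (Atf3, Fos, Fosb, Fosl2 and Junb) and none lower, beside 9.89% of all tested genes called higher and 6.39% lower. Fos rose from 0.809 ± 0.0279 to 9.25 ± 3.16 FPKM and Junb from 8.96 ± 1.35 to 60.9 ± 4.31 (SD, n = 3). Against 14.5 dpp, Atf3, Fos, Fosb and Junb were called higher at D16 and at D22, and Atf3 and Junb at D28. Of all tested genes, 6.56% were called higher at D16, 7.34% at D22 and 7.63% at D28. Junb at D28 had 48.5 ± 27.7 FPKM (SD, n = 3), a wide spread, against 11.9 ± 0.470 (n = 2). Whether these factors had a part in the levels of Penk and Pdyn was not tested.

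Over all lists of the pathway, which hold 112 genes, 111 in the file and 70 tested, 10 were called at D16 against 14.5 dpp, 12 at D22 and 10 at D28. Of these, 9, 10 and 9 were higher. The shares of all 11517 genes called were 6.56% higher and 5.35% lower at D16, 7.34% and 5.51% at D22, and 7.63% and 6.01% at D28. The median log2 difference of the 70 genes was 0.05, 0.06 and 0.09, beside -0.05, -0.05 and -0.08 over all tested genes. The 3 comparisons share the 14.5 dpp testes. Among the other peptide precursors, Adm (adrenomedullin) stood at 1.10 ± 0.553 FPKM at 14.5 dpp (n = 2) and 32.2 ± 12.0 at D28 (SD, n = 3), and rose by 3.95 ± 0.399 (log2, SE, adjusted p = 1.02e-04 in limma). Edn1 (endothelin) rose by 1.18 ± 0.243 at D28 (adjusted p = 0.00429), and Cort and Trh were called from group means below 2 FPKM. Gnao1, a G protein subunit through which opioid receptors signal, fell by 0.76 ± 0.130 on the log2 scale at D28 (adjusted p = 0.00158). At D6 against 8.5 dpp, 20 of 67 tested genes of the lists were called, 15 higher and 5 lower, beside 9.89% and 6.39% of all 11216 genes.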

How the data were processed

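Poly(A) RNA was sequenced as single reads by the authors, who aligned them to rn6 with STAR 2.5.2a and quantified RefSeq transcripts with StringTie and Ballgown. The deposited values are FPKM (named RPKM in the paper's methods), 1 per gene and library, with no read counts. Genes were named through a RefSeq table (17172 of 17322 matched). The log2(FPKM + 1) values entered limma 3.58.1 in R 4.3.3 if a compared group had a median of 0.5 FPKM or more, with Benjamini-Hochberg adjustment over all genes tested. Calls required an adjusted p of 0.05 or less and medians 2-fold or more apart. Late culture (D16, D22, D28) and 14.5 dpp shared 1 fit, where a call used the F test of the 3 contrasts. The adjusted p printed for a gene there is that of its single contrast. The 5 in vivo ages were fitted together and D6 with 8.5 dpp alone. The 14.5 dpp library labelled an outlier was the 1 column not used. Descriptions were made in Python 3.11.15 and figures with matplotlib 3.10.9.

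The precursors and the lists of pathway and marker genes were chosen with earlier results of these data known. Genes named are the 4 precursors, list genes called in a comparison, receptors and processing enzymes, the markers, and for each precursor the 3 genes of highest correlation. On simulated data, 200 of 200 genes shifted by 2 on the log2 scale were called in the in vivo and the D6 fits, and 199.8 in the fit with 14.5 dpp, with 4.8, 4 and 4.2 others on average over 5 data sets. The shifted genes were drawn only from genes of higher level and limited spread, with normal noise. This recovery therefore does not cover genes of low level, such as Pnoc in vivo. P-values set a group difference against the spread between libraries within groups, as moderated by limma over all genes. These libraries are single testes in vivo and pools of several males in culture. Alternatives changed the pseudocount, filter, scaling, variance prior, fold rule, groups in the fit, replicate block and libraries left out.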

Additional observations from a re-analysis of the deposited data

Results flagged for a closer look

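For 3 precursors the D6 and D28 libraries did not overlap, nor did the 14.5 and 36.5 dpp testes, the ages that correspond in days. The direction in culture was opposite to that in vivo. How many of all genes show this pattern was not counted, so the 3 are not set apart by it. The difference between culture and animal was not tested, because late culture chose these genes. Mean log2(FPKM + 1) of Pdyn differed by 1.28 from D6 to D28 and by -1.26 from 14.5 to 36.5 dpp. For Pnoc the differences were 2.01 in culture and -0.41 in vivo, where no library of either age was above 1.38 FPKM. For Penk they were -0.40 in culture and 3.05 in vivo. Groups of 2 and 3 libraries are too small for a test of single outlying libraries.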

How the results depend on the processing

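Of 693 values recomputed under alternatives for 38 results, 676 kept their side of the threshold or moved little. No called or described difference changed sign. Uncalled differences could change sign and still count among the 676. Pnoc at D6 against 8.5 dpp, for example, ran from -0.105 to 0.308 (log2) with 1 library left out. The exceptions to the 676 follow. The pathway genes called at D16 against 14.5 dpp numbered 16 with all 10 groups in 1 fit and 6 with the fold taken from the fitted difference, against 10, and those at D22 numbered 7 with that fold, against 12. The described Pnoc difference of D28 against 14.5 dpp moved to 3.59 with a pseudocount of 0.1. By Spearman correlation, the 3 genes most like Penk, Pnoc and Pomc shared 1, 0 and 1 with those by Pearson. The Pomc call at D6 and the Pdyn call at 30.5 dpp were lost as given with them, the former also with the fold from the fitted difference. Pnoc was called at 30.5 dpp (adjusted p = 0.0293) and 36.5 dpp (0.0171) with a pseudocount of 0.1 in limma, and at 36.5 dpp without the second 8.5 dpp testis (0.0193). The cause was not tested. Leaving out 1 library at a time left 4 to 6 calls of precursors between neighbouring ages (5 with all), 2 to 3 at D6 (3), and 8 to 11, 8 to 13 and 7 to 14 pathway genes at D16, D22 and D28.

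Libraries share replicate numbers, which do not pair them. Deviations of same-numbered libraries from their group means correlated above 0.1 in 0 of 3 library pairs for D6 and 8.5 dpp, 3 of 15 in the fit with 14.5 dpp and 2 of 30 in vivo. With the replicate block, the calls of precursors were 4 across ages, 5 between neighbouring ages and 3 at D6, and the pathway genes called were 10, 11 and 10. Depth is unknown, 14.5 dpp has 2 testes, and values near 0, as for Pnoc in the older testes, depend on the pseudocount.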

Other observations

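Enzymes that degrade opioid peptides changed with age in both directions. Of 13 tested, 1 was called higher and 4 lower from 8.5 to 24.5 dpp, and 4 higher and 3 lower from 24.5 to 30.5 dpp, beside 21.5% and 24.0%, then 13.3% and 24.6%, of all genes. Anpep, aminopeptidase N, fell by 2.00 ± 0.110 from 8.5 to 24.5 dpp (log2, SE, adjusted p = 2.20e-09 in limma), and Ece1 fell by 1.12 ± 0.189 in that step and by 1.27 ± 0.189 in the next (adjusted p = 1.20e-04 and 5.31e-05). Mmel1, a relative of neprilysin, is listed at 0 in all testes of 24.5 dpp and held 6.63 ± 2.62 FPKM at 30.5 dpp and 22.3 ± 5.36 at 36.5 dpp (SD, n = 3). The later step was a rise of 1.63 ± 0.261 (log2, SE, adjusted p = 8.05e-04 in limma). Ace, which also has a germ cell form, rose by 2.30 ± 0.299 from 24.5 to 30.5 dpp (adjusted p = 1.68e-05) and by 1.85 ± 0.299 from 30.5 to 36.5 dpp (adjusted p = 8.51e-04). Thop1, thimet oligopeptidase, rose by 1.97 ± 0.101 from 8.5 to 24.5 dpp (adjusted p = 1.24e-09). Of 12 enzymes of this list tested in late culture, 1 was called, Prep at D22, which fell by 0.86 ± 0.126 on the log2 scale against 14.5 dpp (adjusted p = 7.97e-04 in limma). At D22, 7.34% of all 11517 tested genes were called higher and 5.51% lower.

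The peptides that Pomc yields beside beta-endorphin act on melanocortin receptors. Mc3r was called higher at D28 against 14.5 dpp from low values, 0.587 ± 0.140 FPKM (SD, n = 3) against 0.0766 ± 0.0270 (n = 2), with a log2 difference of 0.56 ± 0.124 (SE, adjusted p = 0.00629 in limma). Mc4r held 1.26 FPKM in the mean of the 53.5 dpp testes, where Pomc was highest. Among other peptide precursors, Adcyap1 (PACAP) rose by 2.47 ± 0.254 from 24.5 to 30.5 dpp (adjusted p = 2.83e-06 in limma) and held 0.04 FPKM in the mean of D28.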
